A study of Mus musculus with 8 samples.

Results

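The genes *Areg*, *Tgfa* and *Pdgfc*, which encode secreted growth factors of the epithelium, were examined in a ChIP-seq experiment, in which DNA bound by p53 was immunoprecipitated and sequenced. They were chosen by name as 3 of the 1425 genes to which the submitters assigned a region with higher p53 binding after bleomycin (BLM), and each holds 1 of the 915 regions of that list. The alveolar organoids were grown without feeder cells from wild-type mouse AT2 cells, the surfactant-producing cells of the alveolus, sorted as EPCAM+ MHCII+ CD31- CD45- cells. CTRL libraries (n = 2) came from organoids that had received the vehicle DMSO for 24 h, and BLM libraries (n = 2) from organoids that had received 100 μM bleomycin, which breaks DNA, for 24 h. No allele or other treatment set the groups apart. The organoids came from 2 mice that were independent of each other. Neither the labels nor the methods tie a library to a mouse, so CTRL and BLM libraries may come from the same mice. RNA was not measured in these libraries, so the identity of the cells was not checked, and a larger fraction of cells with bound p53 cannot be told apart from more binding per cell.

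Amphiregulin (*Areg*) and transforming growth factor alpha (*Tgfa*) are ligands of the epidermal growth factor receptor (EGFR). Both are made as precursors in the cell membrane and are released by the protease ADAM17. Platelet-derived growth factor C (*Pdgfc*) is secreted in a latent form, is activated by proteolysis and signals through PDGFRα, a receptor that lung fibroblasts carry. p53 is a transcription factor that DNA damage stabilises, and it binds DNA as a tetramer on a pair of half-sites at promoters and at sites far from them.

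All 3 enriched regions lay at a distance from the start of their gene. The *Areg* region, chr5:91257857-91258256 of GRCm39, was 29402 bp upstream of the TSS, the transcription start site of the gene. It was shared with *Ereg*, which encodes the related EGFR ligand epiregulin and whose TSS was 35575 bp away on the other side. The *Tgfa* region, chr6:86157568-86157967, lay 14438 bp upstream and was also assigned to *Add2*, the gene of a membrane skeleton protein, at 152081 bp. The *Pdgfc* region, chr3:80965520-80965919, lay 21996 bp downstream of the TSS, and the other gene assigned to it, *Ctso*, the gene of the protease cathepsin O, was 874189 bp away. In the RefSeq annotation of GRCm38.p6, no gene covered the *Areg* or the *Tgfa* region, and the *Pdgfc* region fell within *Pdgfc* itself, a gene of 177625 bp. Whether it is exonic or intronic was not analysed here. Of the 1425 genes, 86.6% had a single region, and the median distance to the nearest region was 53801 bp.

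Overlapping peaks from every library together spanned the TSS of *Areg* and that of *Tgfa*, and no peak spanned that of *Pdgfc*. The sequences upstream of the 3 start sites are shown for this reason. Each is the plus strand of GRCm38.p6 from RefSeq, 250 bases that end just before the start site. Capitals mark every match to TGACGTCA (the cyclic AMP response element), TATAAA (the TATA box) or CCGCCC (the core of a GC box) on either strand.

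*Areg*, chr5:91139349-91139598: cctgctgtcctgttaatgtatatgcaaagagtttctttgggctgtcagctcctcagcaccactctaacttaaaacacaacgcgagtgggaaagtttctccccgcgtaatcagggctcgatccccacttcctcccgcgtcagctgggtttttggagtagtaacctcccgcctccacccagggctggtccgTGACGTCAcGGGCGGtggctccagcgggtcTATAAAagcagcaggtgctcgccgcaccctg

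*Tgfa*, chr6:86194972-86195221: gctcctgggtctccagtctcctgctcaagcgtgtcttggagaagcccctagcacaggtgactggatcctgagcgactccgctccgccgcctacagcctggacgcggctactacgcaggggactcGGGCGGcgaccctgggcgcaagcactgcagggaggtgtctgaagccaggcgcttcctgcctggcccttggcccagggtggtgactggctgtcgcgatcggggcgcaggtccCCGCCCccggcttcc

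*Pdgfc*, chr3:81036166-81036415: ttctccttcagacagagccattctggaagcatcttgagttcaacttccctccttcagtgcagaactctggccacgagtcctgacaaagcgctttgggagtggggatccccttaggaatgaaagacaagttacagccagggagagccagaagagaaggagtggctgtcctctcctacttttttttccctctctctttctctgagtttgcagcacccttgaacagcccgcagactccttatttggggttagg

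The *Areg* sequence held TGACGTCA from 61 to 54 bp upstream of the start site, a GC box core from 52 to 47 bp upstream and TATAAA from 31 to 26 bp upstream. None of these matches overlapped another. The *Tgfa* sequence held 2 GC box cores and neither of the other motifs, and the *Pdgfc* sequence held none of these 3 motifs. The RefSeq gene of *Tgfa* begins upstream of the start site used here, and both of its GC box cores lie within that gene. Of 32536 different promoter sequences of the same length, 1.56% held TGACGTCA, 12.3% TATAAA and 33.0% CCGCCC. The 10-base p53 half-site matched none of the 3 sequences and matched 7.12% of all of them. The enriched regions lie outside these promoter sequences, and their DNA was not searched for any motif. The promoter sequences cover only part of the DNA under the TSS peaks, which extended to 350 bp downstream at *Areg* and 380 bp at *Tgfa*. The summits of the *Areg* TSS peak lay 14 to 233 bp downstream, and no DNA downstream of a start site was searched. The GC content was 57.2% for *Areg*, 69.2% for *Tgfa* and 50.8% for *Pdgfc*, against a median of 52.4%.

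p53 binding at the *Areg* region was strong in vehicle-treated organoids and stronger after BLM. Binding is given as the fold enrichment of a peak over the local background, a value set by the peak caller in each library on its own. At the *Areg* region it was 24.7 and 27.1 in CTRL replicates 1 and 2, and 96.0 and 78.2 in BLM replicates 1 and 2. Both BLM values lay above both CTRL values, and the lower BLM value was 2.88 times the higher CTRL value. The means were 25.9 ± 1.75 in CTRL and 87.1 ± 12.6 in BLM (SD, n = 2 each), a log2 difference of 1.74, with an SD of 0.23. Within its own list, the *Areg* peak ranked 5 of 39577 and 18 of 41451 in BLM, and 633 of 50430 and 346 of 48743 in CTRL. It was thus in the top 2% of every list (percentile 98.7 to 99.99, with 100 as the highest). Among the 915 enriched regions it ranked 7 by its mean log2 fold enrichment in BLM. The −log10 q was 84.7 and 78.0 in CTRL and 379 and 333 in BLM.

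At the *Pdgfc* region the difference between conditions was larger, from a lower level in CTRL organoids. The fold enrichment was 10.6 and 13.0 in CTRL replicates 1 and 2, and 71.0 and 45.0 in BLM replicates 1 and 2. The groups did not overlap, and the BLM replicates differed from each other more than those of *Areg* did. The means were 11.8 ± 1.67 in CTRL and 58.0 ± 18.3 in BLM (SD, n = 2 each), a log2 difference of 2.26, with an SD of 0.51. In the BLM lists the peak ranked 28 and 84, whereas in the CTRL lists it ranked 12937 and 7727. Its percentile was thus 74.3 and 84.1 in CTRL, and 99.9 and 99.8 in BLM.

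The *Tgfa* region differed least between conditions of the 3. Its fold enrichment was 14.0 and 9.37 in CTRL replicates 1 and 2, and 18.8 and 20.7 in BLM replicates 1 and 2. The groups did not overlap, but the lower BLM value was only 1.35 times the higher CTRL value. The means were 11.7 ± 3.24 in CTRL and 19.8 ± 1.34 in BLM (SD, n = 2 each), a log2 difference of 0.79, with an SD of 0.42. Without CTRL replicate 2 the log2 difference was 0.50, and without CTRL replicate 1 it was 1.08. The peak ranked 745 and 579 in the BLM lists and 6742 and 16232 in the CTRL lists, at percentile 98.1 and 98.6 against 86.6 and 66.7.

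**Figure D1:**
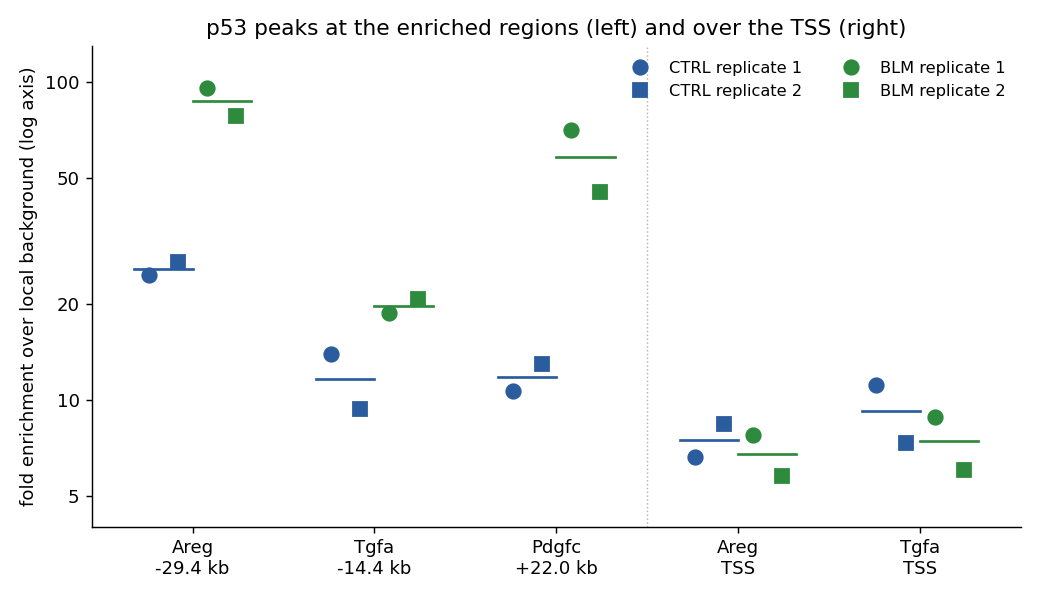
Fold enrichment over the local background (log axis) of the p53 peak in each library. The 3 enriched regions are on the left, with the distance to the TSS. The joined regions that span the TSS of *Areg* and *Tgfa* are on the right. Circles are replicate 1, squares replicate 2 and lines group means; the BLM values lie above the CTRL values at the enriched regions (78.2 and 96.0 against 24.7 and 27.1 at *Areg*), and the groups overlap at both TSS.

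These 3 regions come from a list chosen for higher binding in BLM, so their differences between conditions are a description and were not tested. With 2 libraries a group, an exact permutation test cannot give a two-sided p below 0.333. Peaks of the 4 libraries that overlapped were joined into 63268 regions, of which 41.6% were called in all 4 libraries. Of these regions called in all 4, both BLM values lay above both CTRL values in 5.87%, and the reverse held in 47.2%. Of the 280 enriched regions with a peak in all 4 libraries, 86.8% had both BLM values above both CTRL values. The median log2 difference between BLM and CTRL was −0.37 over all joined regions called in all 4, and 1.26 over these 280 enriched regions. Relative to the median of all joined regions, the log2 difference was 2.11 at *Areg*, 2.63 at *Pdgfc* and 1.16 at *Tgfa*. By the size of the difference, *Pdgfc* ranked 37, *Areg* 83 and *Tgfa* 197 among the 280.

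**Figure D2:**
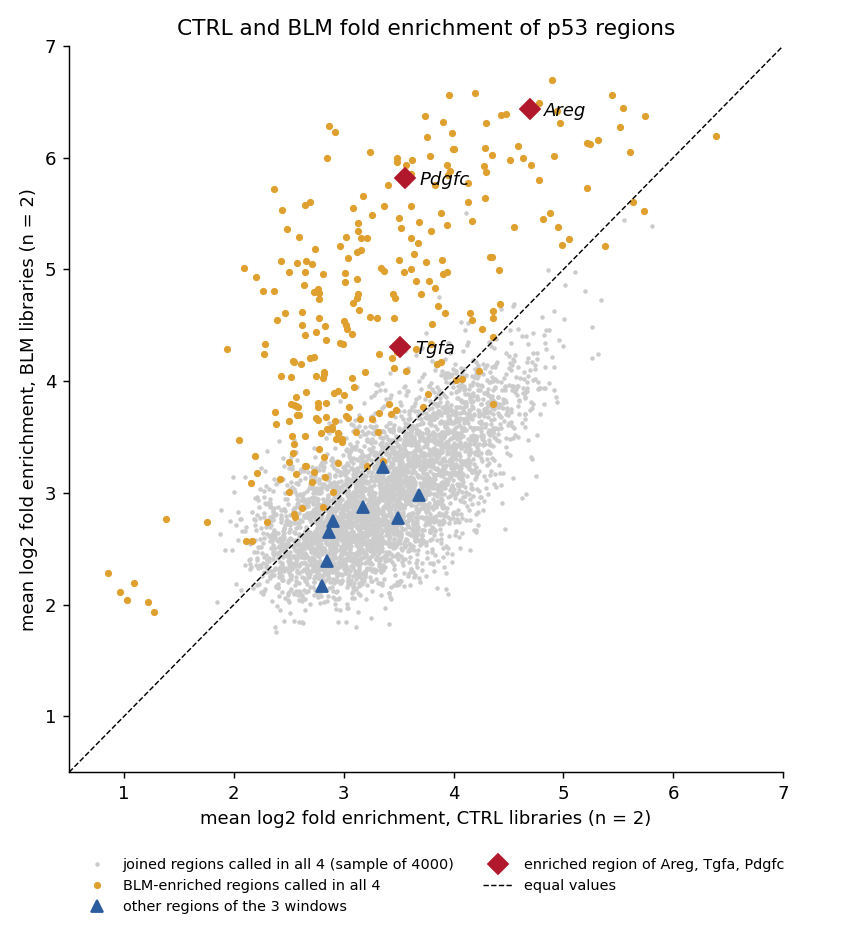
Mean log2 fold enrichment in the CTRL libraries (x axis) and BLM libraries (y axis), n = 2 each, for a sample of 4000 joined regions called in all 4 libraries (grey), for the 280 BLM-enriched regions called in all 4 (orange), for the enriched regions of *Areg*, *Tgfa* and *Pdgfc* (red diamonds) and for the other regions of their windows (blue triangles). The 3 diamonds lie above the line of equal values and the 8 triangles below it.

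Joined peak regions with a peak in every library also spanned the TSS of both EGFR ligands. Their level was lower, without a difference between conditions beyond the replicate spread. Whether the peak of each single library reached the TSS was not checked. These regions played no part in the choice of genes. Over the *Areg* TSS, a joined peak region from −210 to +350 bp had a fold enrichment of 6.64 and 8.39 in CTRL and 7.77 and 5.78 in BLM. The groups overlapped, and the log2 difference of −0.16 was smaller than its SD of 0.38. Over the *Tgfa* TSS, from −252 to +380 bp, the values were 11.2 and 7.35 in CTRL and 8.84 and 6.04 in BLM. Here too the groups overlapped, with a log2 difference of −0.31 and an SD of 0.58. Relative to the median of all joined regions these differences were 0.22 for *Areg* and 0.06 for *Tgfa*. At *Pdgfc* no peak covered the TSS in any library. The nearest region began 169 bp downstream and was called in CTRL replicate 1 at 5.38 and in BLM replicate 2 at 4.34, and not in the other two libraries.

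The rest of the neighbourhood was described within 50 kb of each TSS, the position of which was taken from the middle of the region and its distance. The 3 windows held 23 joined regions, 5 at *Areg*, 13 at *Tgfa* and 5 at *Pdgfc*, of which 3 were the enriched regions. Of the 23 regions, 11 were called in all 4 libraries (47.8%), near the 41.6% of the whole series. No region of the windows was called in both BLM libraries and neither CTRL library (0 of 23), a pattern found in 2.03% of all joined regions. Apart from the enriched regions, 8 regions were called in all 4 libraries, and in 4 of these both CTRL values lay above both BLM values and in the other 4 the groups overlapped. This share of 50.0% was near the 47.2% of all such regions. Their median log2 difference was −0.38, against −0.37 over all joined regions called in all 4. The farthest peak inside a window lay 39047 bp from its TSS, in BLM replicate 2 at *Tgfa* with a fold enrichment of 8.28, and the nearest outside lay at 53095 bp, in CTRL replicate 1 at *Tgfa* with 4.10.

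In BLM organoids the enriched region stood well above everything else in the *Areg* window. Its fold enrichment was 12.4 and 12.3 times that of the next highest peak in BLM replicates 1 and 2, and 1.96 and 2.70 times in CTRL. That next peak in CTRL lay 17 kb downstream of the *Areg* TSS, with a fold enrichment of 12.6 and 10.1 in CTRL and 7.40 and 6.35 in BLM. The number of peaks in the window was 5 and 3 in CTRL and 4 and 4 in BLM, so that the groups overlapped.

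The *Tgfa* window held more peaks in CTRL than in BLM organoids, and within 50 kb it held the most joined regions of the 3. The number of peaks was 10 and 13 in CTRL replicates 1 and 2, and 6 and 5 in BLM replicates 1 and 2. The CTRL lists are longer throughout, and with the same number of peaks taken from every list the means were 8 and 5.5. In BLM the order of the genes turned with the size of the window. Within 100 kb the mean number of BLM peaks was 11 at *Areg* and 6.5 at *Tgfa*, and within 20 kb it was 3.5 at *Pdgfc* and 3 at *Tgfa*. In this window 4 regions were called in both CTRL libraries and neither BLM library, a pattern that 8.4% of all joined regions show. These 4 regions had a fold enrichment between 3.83 and 7.92. In CTRL replicate 2 the enriched region was not the highest peak of the window, since a region 38 kb upstream reached 15.0. In that region the values were 11.0 and 15.0 in CTRL and 8.26 and 7.59 in BLM.

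The *Pdgfc* window held 5 and 5 peaks in CTRL and 4 and 5 in BLM. The enriched region was 1.30 and 1.02 times as high as the next peak in CTRL, and 9.28 and 3.88 times in BLM. A region about 19 kb upstream of the TSS had 8.22 and 12.8 in CTRL and 7.65 and 11.6 in BLM, so that the groups overlapped. The regions 3 kb and 15 kb downstream were lower in BLM, with 7.27 and 7.10 against 4.89 and 5.58, and with 6.32 and 7.66 against 4.72 and 4.26.

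**Figure D3:**
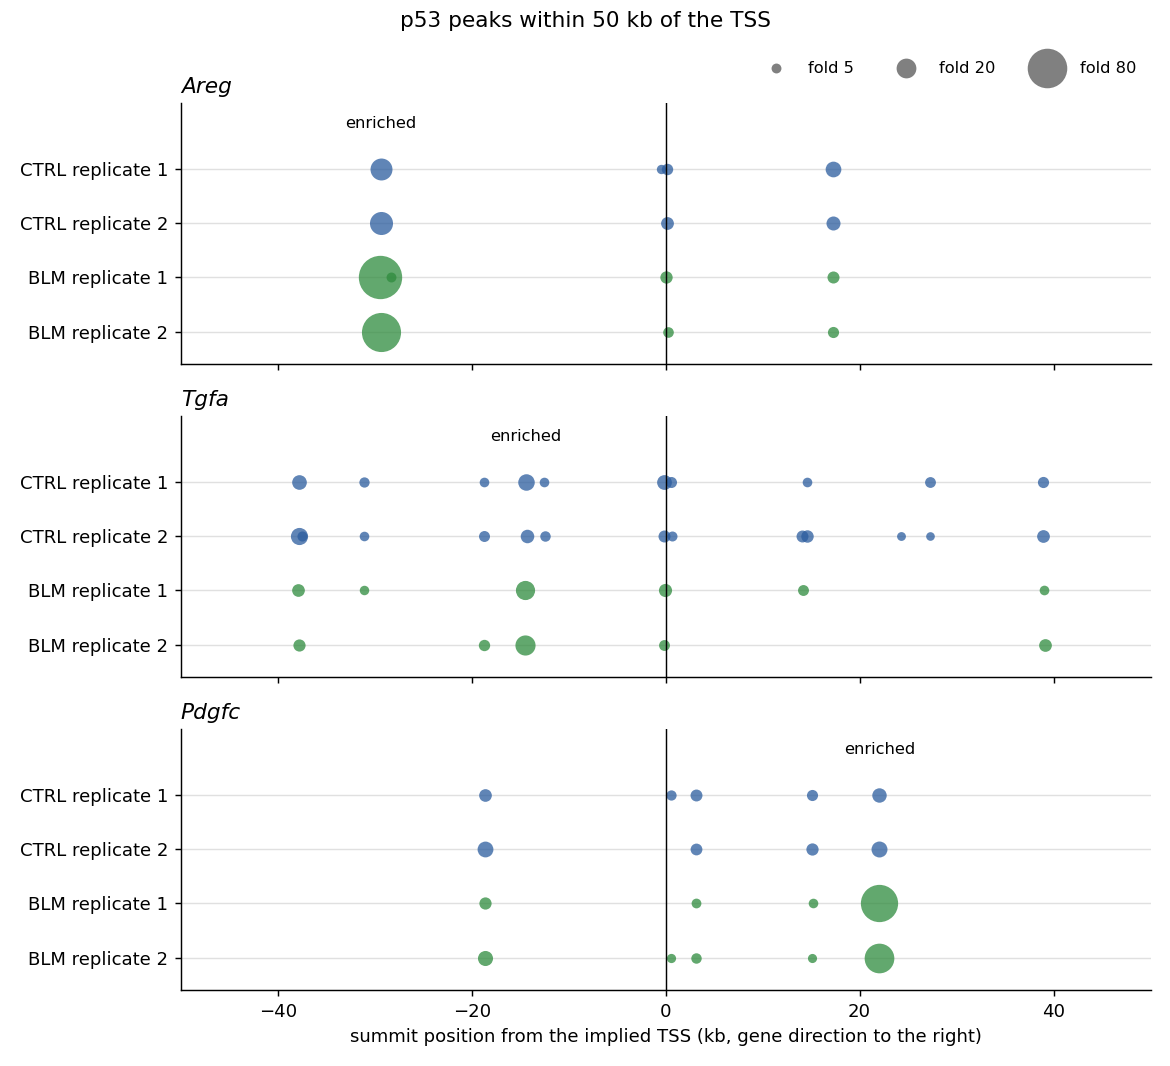
Summits of the p53 peaks in each library within 50 kb of the implied TSS (x axis in kb, TSS at 0), with the area of a dot in proportion to the fold enrichment; where a library had several peaks in 1 joined region, the highest is drawn. The enriched region is the largest dot of the BLM tracks in all 3 windows, and the 13 regions of the *Tgfa* window include 4 seen in both CTRL tracks and neither BLM track.

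The peaks over the enriched regions of *Areg* and *Pdgfc* were wider in BLM, and their summits stayed at one position. At *Areg* the width was 730 and 294 bp in CTRL and 981 and 803 bp in BLM, and at *Pdgfc* it was 595 and 215 bp in CTRL and 1104 and 910 bp in BLM. Both BLM peaks were wider than both CTRL peaks, as in 6.2% of the joined regions called in all 4. Both regions come from the list chosen for higher binding in BLM, and the share among the enriched regions was not computed. Median widths over whole lists were 330 and 322 bp in CTRL and 281 and 279 bp in BLM. The 4 summits lay within 12 bp of each other at *Areg* and within 36 bp at *Pdgfc*.

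At *Tgfa* the widths overlapped between groups (368 and 416 bp in CTRL, 397 and 505 bp in BLM), and the summits did not. They lay 58 and 104 bp downstream of the middle of the enriched region in CTRL replicates 1 and 2, and 58 and 32 bp upstream of it in BLM replicates 1 and 2. The gap of 90 bp between the groups exceeded the distance between replicates, which was 46 bp in CTRL and 26 bp in BLM. A gap of at least this size was found in 3.07% of the joined regions called in all 4, and in 15.4% of the 286 of these that overlap an enriched region. This comparison of summits was chosen after the positions were seen, and it was not tested.

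**Figure D4:**
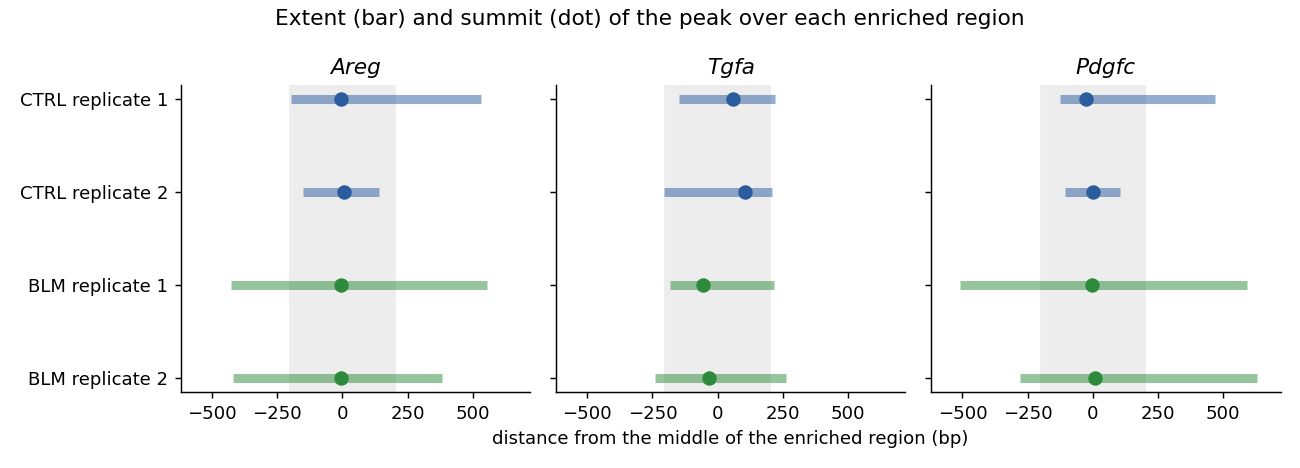
Extent (bar) and summit (dot) of the peak over each enriched region, by library, in bp from the middle of the region, whose 400 bp are shaded. The summits coincide within 12 bp at *Areg* and 36 bp at *Pdgfc*, while at *Tgfa* those of CTRL and BLM lie 90 bp or more apart.

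For each gene, the 3 enriched regions with the most similar 4 values are named. They are alike by selection, and no typical distance between enriched regions is given. Likeness was taken as the Euclidean distance of the 4 log2 fold enrichments, over the 279 other enriched regions called in all 4 libraries. The region most like that of *Areg* was assigned to *Mtmr10* and *Fan1*, a nuclease gene of crosslink repair (distance 0.35), with 26.9 and 28.0 in CTRL and 85.7 and 94.7 in BLM. The next were the regions of *Fam53b* and *Lhpp* (0.47) and of *Arhgef12* and *Grik4* (0.55). For *Pdgfc* the nearest was the region of *Gtf2h5* and *Tulp4* (0.37), followed by that of *Phlda3* and *Csrp1* and by that of *Bax* (0.47 each). *Bax*, a mediator of apoptosis, and *Phlda3*, an inhibitor of AKT, are established targets of p53. The *Bax* region had 10.6 and 14.3 in CTRL and 65.3 and 60.8 in BLM. It lay 315 bp from its TSS, whereas that of *Pdgfc* was 21996 bp away. For *Tgfa* the nearest were the regions of *Atp6v1a* and *Gramd1c* (0.42), of *Dhx35* and of *Tmem29* (0.47 each).

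The other genes of the EGF and PDGF pathways were taken from lists of ligands, receptors, factors of release or activation, and feedback regulators. Of these 34 genes, 9 had an assigned region, while 6.28% of the 21900 protein-coding genes of RefSeq had one. With regions within 50 kb of the TSS only, or with the nearest gene of each region only, 5 of the 34 had one. The 9 include the 3 growth factors themselves and *Ereg*, which shares the region of *Areg*, and the lists were drawn up with earlier results known, so this share was not tested. Of the 11 EGF family ligands, *Areg*, *Ereg*, *Tgfa* and *Nrg1* had a region, and of the 4 PDGF ligands, *Pdgfc* alone did. None of the 4 EGF family receptors and neither of the 2 PDGF receptors had a region. Of the 6 genes of release and activation, *Plau*, the gene of the protease urokinase, had one. Of the 7 feedback regulators, *Lrig1*, *Spry2* and *Cbl* had one.

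*Nrg1* encodes neuregulin 1, a ligand of the receptors ERBB3 and ERBB4, and had 2 regions far downstream of its TSS. Both were also assigned to *Fut10*. At the region 118284 bp away the fold enrichment was 13.9 and 16.1 in CTRL and 84.9 and 75.2 in BLM, so that the BLM values were close to those of *Areg*. At the region 396976 bp away it was 29.3 and 32.8 in CTRL and 36.3 and 47.7 in BLM. The *Plau* region, 31101 bp upstream, had 11.1 and 12.3 in CTRL and 18.5 and 21.7 in BLM, values near those of *Tgfa*. This region was also assigned to *Camk2g*, and *Plau* was not its nearest gene.

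*Lrig1*, *Spry2* and *Cbl* encode proteins that restrain receptor tyrosine kinase signalling. Their regions were also assigned to *Kbtbd8*, *Gm10076* and *Mcam*, in this order. Only 1 of the 3 regulators was the nearest gene of its region. The *Lrig1* region, 398377 bp upstream, was called only in BLM, at 7.63 and 7.41. The *Spry2* region, 63219 bp downstream, had 8.32 and 4.38 in CTRL and 14.0 and 12.0 in BLM. The *Cbl* region, 97569 bp downstream, was called at 4.54 in CTRL replicate 1, not in CTRL replicate 2, and at 21.1 and 9.84 in BLM.

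**Figure D5:**
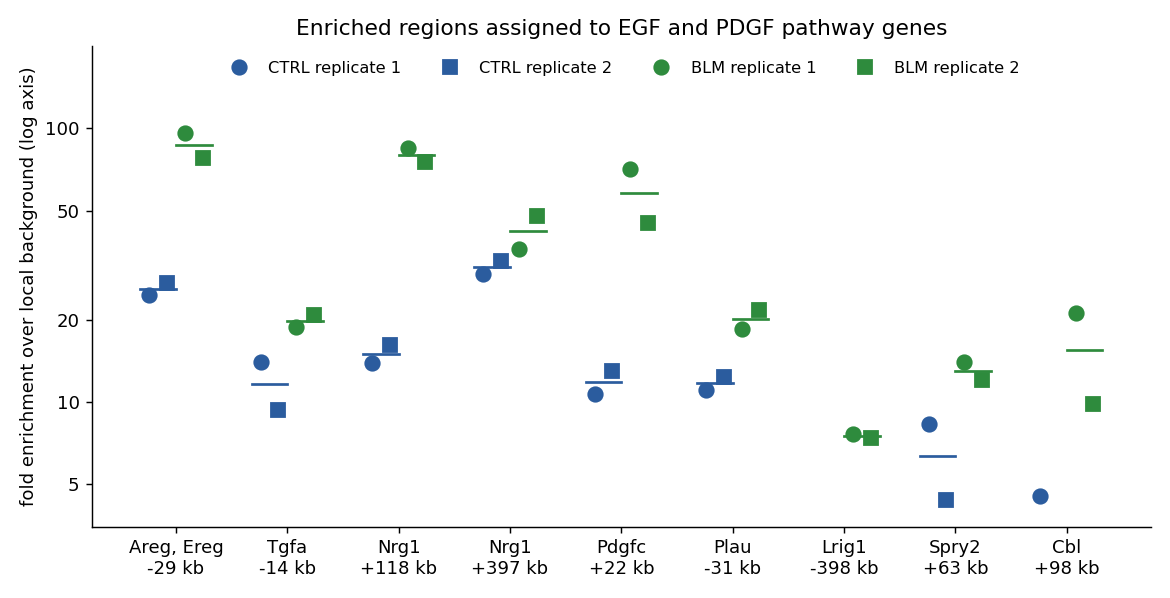
Fold enrichment over the local background (log axis) of the p53 peak in each library. The enriched regions shown are those assigned to EGF and PDGF pathway genes, with the distance to the TSS. Lines are group means where both replicates had a peak. *Areg* with *Ereg*, the nearer *Nrg1* region and *Pdgfc* reach the highest BLM values, and *Lrig1* has no CTRL peak.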

How the data were processed

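Processed files of 4 p53 ChIP libraries (2 CTRL, 2 BLM) were used, grouped by the submitters' titles; no peak list was analysed here for the 4 input libraries. The submitters' processing notes name Trim Galore 0.6.7, Bowtie2 2.5.1, MACS3 3.0.0b1, DiffBind 3.8.4 and edgeR 3.40.2, and the builds mm39 and mm10. The authors deposited 1 peak list per library, with a fold enrichment (a ratio over the local background), a score of 10 times −log10 q, and −log10 p and q for each peak; the lowest −log10 q was just above 2. They also deposited the enriched regions, and a table by GREAT 4.0.4 on mm10 whose basal domain ran from 5000 bp before to 1000 bp after each TSS, extended by up to 1000000 bp. The control used in calling and the test behind the enriched list are not given in the sources used here. The lists hold no read counts, so depth is unknown and no counting interval is given.

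Positions in the lists and regions are on GRCm39, as a contig that only this build holds shows, and distances were computed on mm10. No position was converted. All 3 genes are on the plus strand in RefSeq (GRCm38.p6), so the TSS was taken as the middle of the region minus the signed distance. The spacing to the TSS of the other assigned gene differed from RefSeq by 5, 22 and 0 bp for *Areg*, *Tgfa* and *Pdgfc*. Here the RefSeq position was the start site at which the printed promoter sequence ends. For *Tgfa* the RefSeq gene begins upstream of that start site. The spacing was 166357 bp from the gene start and 166541 bp from the start site, against 166519 bp implied. Peaks sharing at least 1 bp were joined, and the highest peak of a library stood for a joined region. Ranks are by fold enrichment within a list. The joining was tested on simulated lists. The SD of a log2 difference is the square root of the sum of both groups' variances on the log2 scale.

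The members and lists were chosen with earlier results of these data known. The genes named are the 3 members, the pathway lists, the genes sharing a region with either, and those of the 3 most similar regions of each member. Alternatives were an overlap of 50% of the shorter interval, a minimum −log10 q of 5, lists of equal length, ranking by −log10 q, windows of 20 and 100 kb, each library left out in turn and replicate pairs. Python 3.11.15, numpy 2.4.6, pandas 2.3.3 and matplotlib 3.10.9 were used.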

Additional observations from a re-analysis of the deposited data

How the results depend on the processing

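Of 104 alternative values, 93 moved by less than the spread between replicates or, for counts, by no more than 1.5 times. This tally is not a test of stability. With 2 libraries a group, leaving 1 out always moves a log2 difference or a mean percentile by less than that spread. The values of the replicate block equal the main values by construction. The log2 difference of each of the 3 enriched regions was above 0 under every alternative run. This sign is no independent support, since the regions were listed for higher binding in BLM. As both BLM values lay above both CTRL values at each region, leaving out a library could not reverse it. Leaving out 1 library at a time gave log2 differences of 1.60 to 1.89 for the *Areg* region, 0.50 to 1.08 for *Tgfa* and 1.94 to 2.59 for *Pdgfc*, mean percentiles in BLM of 99.96 to 99.99, 98.1 to 98.6 and 99.8 to 99.9, and in CTRL of 98.7 to 99.3, 66.7 to 86.6 and 74.3 to 84.1. It gave 3 to 5 peaks in CTRL and 4 in BLM for the *Areg* window, 10 to 13 and 5 to 6 for *Tgfa*, and 5 and 4 to 5 for *Pdgfc*. Centred on the median of all joined regions called in all 4 libraries, a setting added after the data were seen, the log2 difference at *Areg* was 2.11. Ranked by −log10 q, the mean percentile was 99.5 for *Areg* in CTRL and 97.9 for *Tgfa* in BLM, and where peaks under a −log10 q of 5 were dropped the latter was 98.0. Within 20 kb the mean number of peaks was 2.5 in BLM at *Areg*, and 6.5 in CTRL and 3 in BLM at *Tgfa*; within 100 kb it was 11 in both groups at *Areg*. The *Tgfa* window had more peaks in CTRL than in BLM under every alternative run, whereas at *Areg* the order of the groups turned, with means of 4 and 4 in CTRL and BLM, 3 and 4 without CTRL replicate 1 or with lists of equal length, 5 and 4 without CTRL replicate 2, and 3 and 2.5 within 20 kb. At *Pdgfc* the means of 5 and 4.5 became equal within 20 kb (3.5) and within 100 kb (5), and without BLM replicate 1 (5). With regions within 50 kb only, or with the nearest gene of each region only, 5 of the pathway genes had a region in place of 9. As a replicate block, the mean of same-numbered pairs equals the main value by construction, at 1.74 ± 0.31 for *Areg*, 0.79 ± 0.50 for *Tgfa* and 2.26 ± 0.67 for *Pdgfc* (SD over 2 pairs). The libraries were not treated as pairs, since no source ties the numbers to a mouse. The differences between replicates correlated at 0.0072 between CTRL and BLM over the joined regions called in all 4. This value cannot show whether libraries of the same number share a mouse, as a small effect of the mouse could be lost in the replicate spread. The missing read counts limit all values, since differences between libraries in depth or background cannot be told apart from binding.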
